A study of Homo sapiens with 6 samples.

Results

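AREG, THBS1 and EDN1 are genes of secreted factors that are known as targets of YAP and TAZ, the co-activators at the end of the Hippo pathway. They were chosen by name for that role, with earlier results of these data known, as 3 of the 770 genes of the nCounter PanCancer Progression Panel. The panel is a hybridization assay that counts a fluorescent barcode for each captured RNA molecule. The cells were NIH:OVCAR-3, a long-established line from a human high-grade serous ovarian carcinoma. Cells were grown for 1 week at low density (3 samples) or at high density (3 samples), and no gene had been altered and no drug added in either group. Both groups were kept in RPMI 1640 medium to which 20% fetal bovine serum, glucose (4.5 g/L), HEPES (10 mM), sodium pyruvate (1 mM) and insulin (10 µg/ml) had been added. A medium density named in the study's design was not analysed here. A single cell line in a dish holds neither the stroma nor the vessels of a tumour, and the RNA came from whole cultures, so that fewer cells making a transcript and less of it per cell cannot be told apart.

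In sparse cells YAP and TAZ enter the nucleus and switch on genes together with the TEAD factors, which bind DNA directly. In crowded cells the kinases of the Hippo pathway, helped by the tumour suppressor NF2, phosphorylate YAP and TAZ and hold them in the cytoplasm. Genes of secreted factors are among the targets, so that the pathway can also act on neighbouring cells. The comparison of low with high density asks whether these transcripts differed with the crowding of the cells, and which of them were not higher in sparse cells.

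The values are normalized counts, that is barcode counts multiplied by 1 factor per sample that sets the 30 reference genes of the panel to the same geometric mean. Recovered totals lay between 658420 and 696309 barcode counts in the low density samples and between 554858 and 683341 in the high density samples. Low density replicates 1 and 2 did not differ detectably beyond the sampling noise of their counts (chi-square of 1.05 per gene over 770 genes, p = 0.182, and 1.10 over the 509 genes with a mean of at least 20, p = 0.061), whereas the other pairs within a density did (1.28 to 1.72 over 770 genes). Replicates 1 and 2 were therefore averaged and counted as 1 sample, which left n = 2 at low density and n = 3 at high density. The labels do not say that samples came from separate cultures, so p-values cover only how far these samples spread, and that spread may be technical. Changes were tested with limma on log2(normalized count + 1) for the 480 genes with a mean of at least 20, with Benjamini-Hochberg adjustment over those 480. Fold changes are low over high density on that scale, which understates the change of low genes, and the spread of each gene was taken from the trend over all genes. Background, as the mean plus 2 SD of the 8 negative control probes, was 14.4 normalized counts at low density, against 15.9 at high density. The epithelial label was borne out by all 7 epithelial markers looked for, such as EPCAM, which averaged 3034 ± 122 at low density, against 3101 ± 54.0 at high density (SD, n = 2 and 3).

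AREG and THBS1 rose in cells grown at low density, and EDN1 fell. The change was 2.26-fold for AREG, 1.52-fold for THBS1 and 0.675-fold for EDN1. In each of the 3 genes the low density libraries did not overlap the high density libraries. Such differences were common on this panel. A rise past the threshold was found for 37.9% of the 480 tested genes and a fall for 25.2%, while 38.8% had all low density libraries above all high density libraries and 27.3% had them all below. The median log2 fold change of all tested genes was 0.052. All 3 genes passed the floor on low values in both groups, so none was tested only because of the group where it was high.

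**Figure D1:**
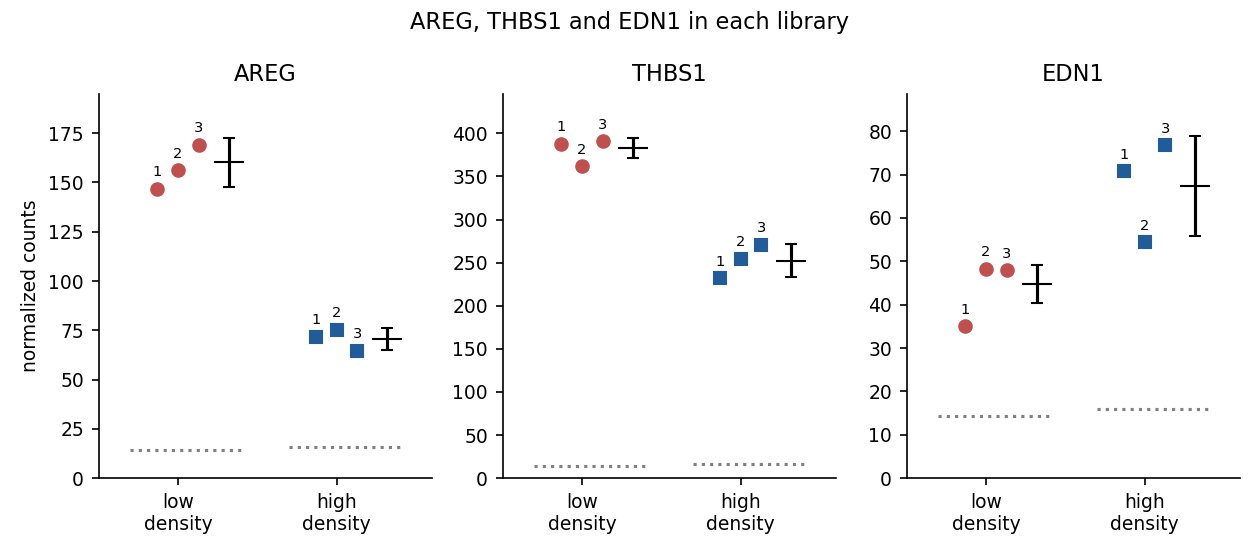
Normalized counts (linear axes that start at 0) of AREG, THBS1 and EDN1 in each library, low density left and high density right, with the mean and SD of n = 2 samples at low density, where replicates 1 and 2 count as 1 sample, and n = 3 at high density. The low density libraries lie above the high density libraries for AREG and THBS1 and below them for EDN1, where the nearest libraries were 48.2 at low density, against 54.4 at high density.

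AREG encodes amphiregulin, a ligand of the EGF receptor that is made as a membrane-bound precursor and released by the protease ADAM17. It was read at 147, 156 and 169 normalized counts in low density replicates 1 to 3, against 71.7, 75.3 and 64.6 in high density replicates 1 to 3. Every low density library was above every high density library, and the lowest low density value was 1.95 times the highest high density value. The means were 160 ± 12.4 at low density, against 70.6 ± 5.47 at high density (SD, n = 2 and 3), a log2 fold change of 1.17 (SE 0.14, 95% confidence interval 0.90 to 1.44, limma adjusted p = 2.93e-16). That was the 23rd highest of the 480 log2 fold changes. Behind these values stood 151, 175 and 180 recovered barcode counts at low density, against 72, 72 and 53 at high density. The coefficient of variation over the 3 libraries was 7.1% at low density, against 7.7% at high density, no more than the 7.7% and 12.5% that counting error alone would give for these groups. The mean was 11.2 times the background limit at low density and 4.43 times at high density.

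The 250 bases before the annotated start site of AREG are shown because AREG changed most of the 3 genes, and because they hold a complete cAMP response element. They lie at chr4:74444886-74445135 in GRCh38.p14, on the plus strand and upstream of the gene, which runs from 74445136 to 74455005. In the sequence, from RefSeq and written 5′ to 3′, the element TGACGTCA is in capitals.
AREG: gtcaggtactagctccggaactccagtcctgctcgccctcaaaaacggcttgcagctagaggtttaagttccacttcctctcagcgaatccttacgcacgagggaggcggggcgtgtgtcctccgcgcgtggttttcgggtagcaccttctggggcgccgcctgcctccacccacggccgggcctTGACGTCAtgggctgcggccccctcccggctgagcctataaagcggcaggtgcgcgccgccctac
The element starts 65 bases before the start site, and 65.2% of the 250 bases are G or C.

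THBS1 encodes thrombospondin 1, a large secreted glycoprotein of the matrix that binds integrins and CD36, can activate latent TGF-beta and restrains angiogenesis. It was read at 388, 362 and 391 normalized counts in the low density libraries, against 232, 254 and 271 in the high density libraries. Again every low density library was above every high density library, with the nearest 1.34 times apart. The means were 383 ± 11.4 at low density, against 252 ± 19.3 at high density (SD, n = 2 and 3), a log2 fold change of 0.60 (SE 0.09, 95% confidence interval 0.43 to 0.77, limma adjusted p = 2.43e-11). THBS1 stood 69th from the top of the 480 log2 fold changes. It was the best measured of the 3 genes, with 399, 405 and 416 recovered counts at low density, against 233, 243 and 222 at high density. The coefficient of variation was 4.2% at low density, where counting error gives 5%, and 7.7% at high density, where it gives 6.6%.

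The same stretch of THBS1 is shown because it holds the core letters bound by TEAD factors, the DNA-binding partners of YAP and TAZ. It lies at chr15:39580829-39581078 in GRCh38.p14, on the plus strand and upstream of the gene, which runs from 39581079 to 39599466. The letters GGAATG are in capitals.
THBS1: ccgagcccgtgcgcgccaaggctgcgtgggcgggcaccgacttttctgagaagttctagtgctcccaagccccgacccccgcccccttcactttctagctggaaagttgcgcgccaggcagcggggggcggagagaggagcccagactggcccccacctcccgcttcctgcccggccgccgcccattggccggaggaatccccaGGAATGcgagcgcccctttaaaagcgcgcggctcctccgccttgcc
The match starts 46 bases before the start site, and 69.6% of the stretch is G or C.

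EDN1 encodes the precursor of endothelin-1, a vasoconstrictor peptide that also acts as a growth factor on epithelial cancer cells through the receptors EDNRA and EDNRB. It was read at 35.0, 48.2 and 47.9 normalized counts in the low density libraries, against 70.7, 54.4 and 76.8 in the high density libraries. All low density libraries were below all high density libraries, but the nearest were only 1.13 times apart. The means were 44.8 ± 4.47 at low density, against 67.3 ± 11.6 at high density (SD, n = 2 and 3), a log2 fold change of −0.57 (SE 0.17, 95% confidence interval −0.90 to −0.23, limma adjusted p = 0.00197). EDN1 was 45th from the bottom of the 480 genes, and its direction was opposite to the one its place among YAP and TAZ targets would give.

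EDN1 was also the least well measured of the 3 genes, at 3.11 times the background limit at low density and 4.22 times at high density. The recovered counts were 36, 54 and 51 at low density, against 71, 52 and 63 at high density, so that before scaling low density replicate 2 lay above high density replicate 2. The coefficient of variation was 17.3% at low density, against 17.2% at high density, against 14.8% and 12.8% from counting error. The call was lost with the methods' t-test, which does not borrow spread from other genes, both on the samples as counted here (adjusted p = 0.115 after Benjamini-Hochberg adjustment over 480 genes) and on 6 separate samples (−0.61, adjusted p = 0.0736). On 6 separate samples the p of EDN1 before adjustment, 0.0434, was under the threshold of the methods, which name no adjustment. AREG and THBS1 passed in every one of the 19 alternatives tried, and EDN1 in 17 of them.

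RefSeq gives EDN1 3 start sites, all on the plus strand and inside the annotated gene at chr6:12230516-12297194 in GRCh38.p14. Upstream of the start site at 12290014, the letters CATTCC, the TEAD core on the other strand, lie 129 bases before it. They are shown with their neighbours, chr6:12289873-12289902, because EDN1 shares this core with THBS1 and moved the other way.
EDN1: gacgagggagagCATTCCcttgtttgactg
The windows of the other EDN1 start sites held none of the motifs searched, and the window of AREG held no TEAD core. These were GGAATG or CATTCC (TEAD), TGANTCA (AP-1) and TGACGTCA (the cAMP response element), on both strands of the 250 bases before and 50 bases after each start site. The 3 motifs do not overlap in these genes, and TGANTCA was in none of their windows. Of 35116 such windows of 300 bases, 14.03% held the TEAD letters, 7.71% TGANTCA and 1.85% the cAMP response element. These shares are per window, and EDN1 had 3 windows searched, against 1 each for THBS1 and AREG. A match is a description of the letters and not of a bound site.

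**Figure D2:**
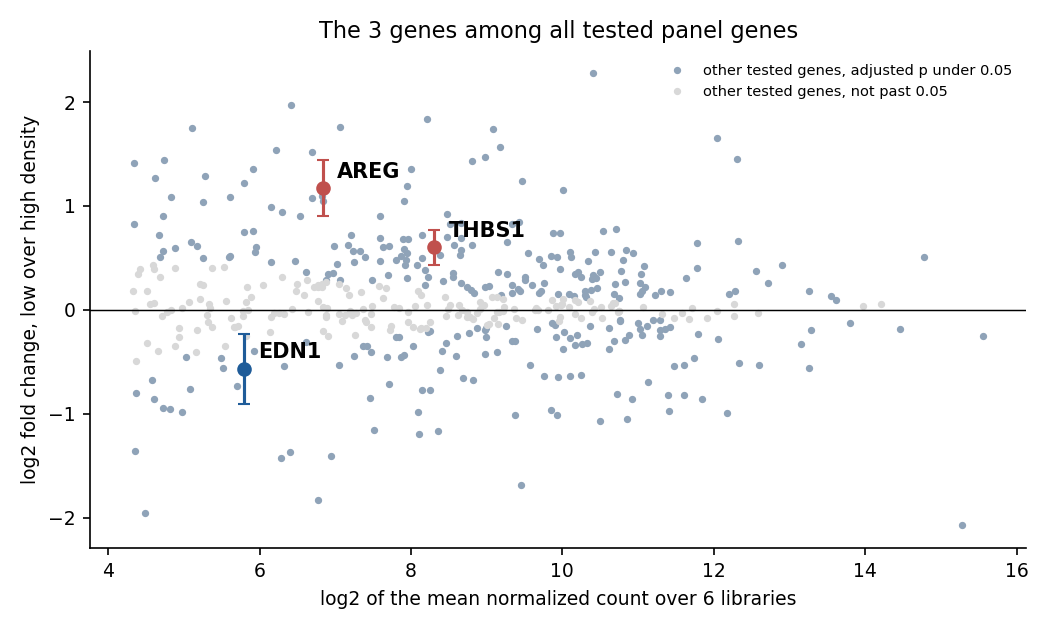
Log2 fold change, low over high density, against the log2 of the mean normalized count over 6 libraries, for the 480 tested genes, with 95% confidence intervals for the 3 named genes. AREG (1.17) and THBS1 (0.60) lie above 0 and EDN1 (−0.57) below it, each within the range of other genes of like level.

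The 3 genes were also set against each other within a library, as the difference of their log2(normalized count + 1), a log2 ratio in which the scaling factor of the library cancels but for the added 1. The probes of different genes need not count equally well, so only the change of a ratio between densities can be read. The log2 ratio of AREG to EDN1 was 2.04, 1.68 and 1.80 in the low density libraries, against 0.02, 0.46 and −0.25 in the high density libraries. The groups did not overlap, and AREG gained 3.34-fold on EDN1 at low density (a difference of 1.74, from means of 1.82 ± 0.03 at low density, against 0.079 ± 0.36 at high density). Without the added 1, where the factor cancels fully, the difference was 1.76.

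The log2 ratio of THBS1 to EDN1 was 3.43, 2.88 and 3.0 at low density, against 1.70, 2.20 and 1.80 at high density, a change of 2.25-fold (1.17, and 1.18 without the added 1). The log2 ratio of AREG to THBS1 was −1.40, −1.21 and −1.20 at low density, against −1.68, −1.74 and −2.05 at high density, a change of 1.49-fold (0.57, and 0.58 without the added 1). Neither ratio overlapped between the densities. An exact permutation test (two-sided) gave p = 0.2 for each of the 3 pairs, 0.2 also after adjustment over them, which is the smallest p that 2 samples against 3 can give.

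**Figure D3:**
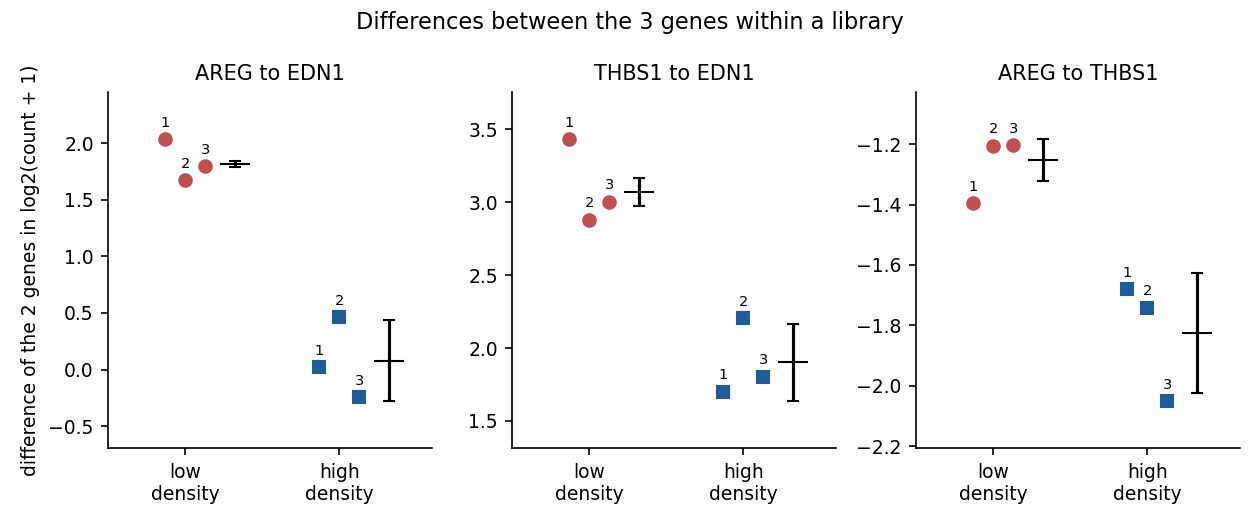
Difference of 2 genes of the same library in log2(normalized count + 1), that is their log2 ratio after adding 1, low density left and high density right in each panel, with means and SD (n = 2 and 3). All low density ratios lie above all high density ratios in the 3 panels, with the widest gap for AREG to EDN1.

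The 3 genes were then placed beside the other genes of their pathways. Of 38 YAP and TAZ target genes listed, 11 were on the panel and 9 were tested, with 5 that rose, 2 that fell and 2 short of the threshold, against 37.9% of all tested genes that rose and 25.2% that fell, and with a median log2 fold change of 0.41 against 0.052 for all tested genes. The list was written with earlier results of these data known. Without AREG, THBS1 and EDN1, 3 of 6 rose, 1 fell and 2 did not pass, with a median of 0.31.

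Among these others CAV1, the main protein of caveolae, was read at 242, 254 and 255 in the low density libraries, against 134, 122 and 147 in the high density libraries, without overlap (log2 fold change 0.90 ± 0.11 SE, limma adjusted p = 2.25e-15). F3, tissue factor, also rose (0.46 ± 0.12, adjusted p = 1.94e-04), but without low density replicate 3 its value was 0.34 and limma's adjusted p 0.0644, and the call was also lost with quantile normalization and the methods' t-test. FSTL1, a secreted follistatin-like glycoprotein, rose by 0.18 ± 0.04 on the log2 scale, a call lost with quantile normalization (0.13, limma adjusted p = 0.0556). TGFB2, a TGF-beta ligand, fell by 0.153 on the log2 scale (SE 0.04, adjusted p = 0.00114), a call that was lost with positive control scaling (−0.012, adjusted p = 0.857), without the mean trend and with the methods' t-test.

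LOXL2, a matrix crosslinking enzyme, had a log2 fold change of 0.41 (adjusted p = 0.1) and TNFRSF12A, the receptor of TWEAK, one of 0.22 (adjusted p = 0.135), and both passed with positive control scaling. Without low density replicate 3 the value of TNFRSF12A was 0.04 (limma adjusted p = 0.894), and LOXL2 passed without the mean trend. INHBA, which encodes a subunit of the secreted activins and inhibins, stayed under the floor, with a mean of 2.83 at low density, against 6.34 at high density.

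Of 32 listed components of the Hippo pathway itself the panel held 2, and both rose, as did 37.9% of all tested genes. NF2, the upstream tumour suppressor, was read at 2135, 2102 and 2126 in the low density libraries, against 1268, 1217 and 1236 in the high density libraries (log2 fold change 0.77 ± 0.05, limma adjusted p = 3.46e-52). WWTR1, the gene of TAZ, was read at 1496, 1451 and 1576 at low density, against 1233, 1271 and 1129 at high density (0.33 ± 0.05, adjusted p = 1.84e-10). Both genes had all low density libraries above all high density libraries, as did 38.8% of all tested genes. These are transcript levels, and the place or phosphorylation of the proteins was not measured.

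**Figure D4:**
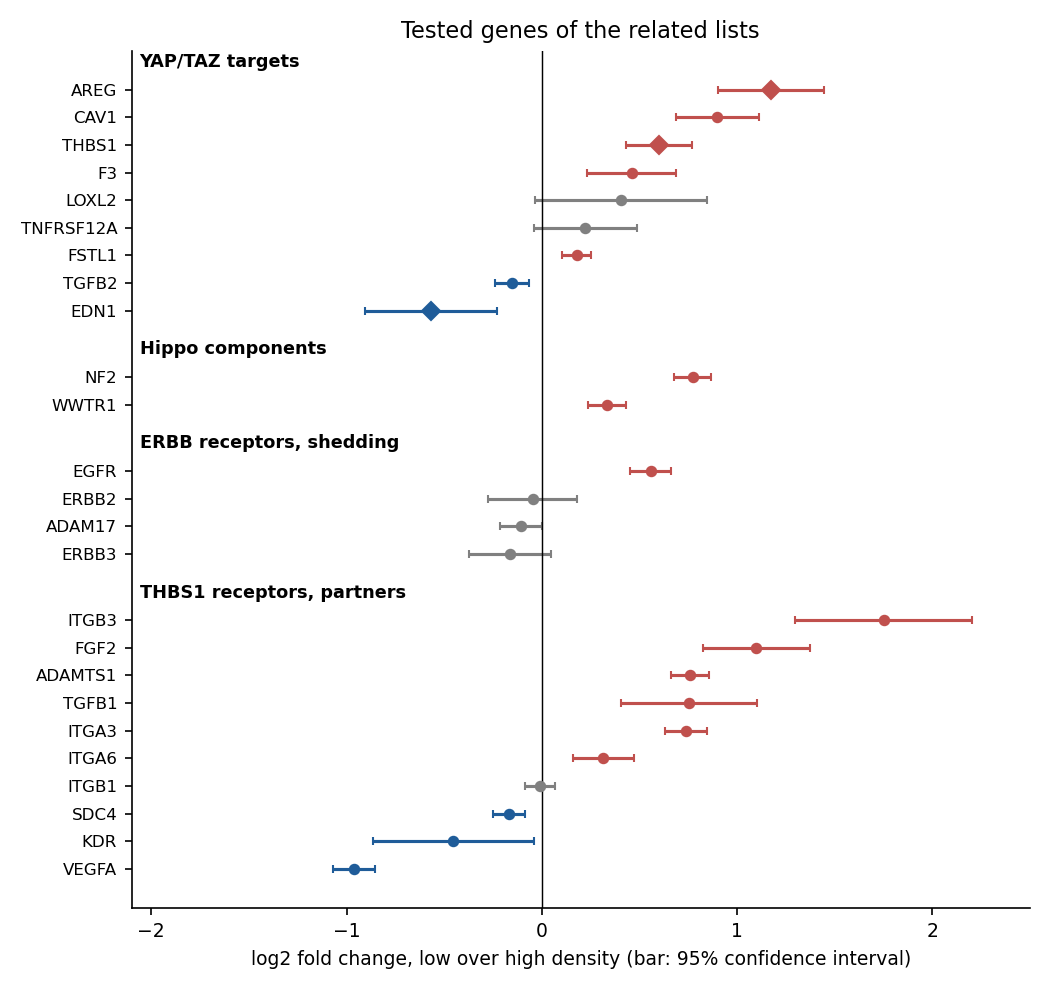
Log2 fold change, low over high density, with 95% confidence interval, for the tested genes of 4 related lists, with diamonds for AREG, THBS1 and EDN1, red for genes that rose, blue for genes that fell and grey for genes that did not pass. AREG has the highest value and EDN1 the lowest of the 9 tested YAP and TAZ targets. ITGB3, drawn in red, reached the floor only through its low density values and gets no p.

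Other members of the AREG signalling route were measured in part. EGFR, the receptor of amphiregulin, was read at 1322, 1252 and 1335 in the low density libraries, against 853, 884 and 935 in the high density libraries. It rose by 0.56 ± 0.05 on the log2 scale (SE, limma adjusted p = 2.3e-23), so that ligand and receptor transcripts were both higher at low density. ERBB2 (−0.046, adjusted p = 0.768, and 0.094 with positive control scaling) and ERBB3 (−0.16, adjusted p = 0.174), which pair with EGFR, did not pass. ERBB3 passed when high density replicate 3 was left out (−0.26, limma adjusted p = 0.0386).

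ADAM17, the protease that releases amphiregulin, averaged 957 at low density, against 1029 at high density (−0.11, adjusted p = 0.0804). This call depended on the scaling, since ADAM17 passed with median-of-ratios scaling (−0.18, adjusted p = 0.00183) and quantile normalization (−0.13, limma adjusted p = 0.0297). With positive control scaling ADAM17 had the opposite sign (0.037, adjusted p = 0.63). It also passed without low density replicate 1 (−0.13, limma adjusted p = 0.0375) and with 6 separate samples. Of the 11 listed ligands of this receptor family 3 were on the panel, and EGF (18.5 at low density, against 13.5 at high density) and EREG (5.37 at low density, against 10.7 at high density) stayed under the floor. AREG was thus the ligand of this family that could be tested.

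For THBS1, the panel held 4 of 5 thrombospondins. THBS4 averaged 38.3 at low density, against 42.7 at high density (−0.17, adjusted p = 0.469, and 0.068 without low density replicate 3), and THBS2 and COMP stayed under the floor. Of 11 panel genes for receptors and partners of thrombospondin 1, 10 were tested, with 6 that rose, 3 that fell and 1 short of the threshold, beside 37.9% and 25.2% of all tested genes that rose and fell. The 6 include ITGB3, which reached the floor only through its low density values.

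ITGB3, an integrin subunit that binds thrombospondin 1, was read at 55.4, 46.4 and 58.2 at low density, against 13.95, 16.7 and 15.9 at high density, where its mean lay under the background limit. Its low density mean was 3.43 times that limit, a ratio of means that carries no spread. Since its high density mean was under the floor, ITGB3 gets no p here. The growth factors FGF2 (1.10 ± 0.14) and TGFB1 (0.75 ± 0.18), the protease ADAMTS1 (0.76 ± 0.05) and the integrin subunits ITGA3 (0.74 ± 0.06) and ITGA6 (0.32 ± 0.08) also rose, of which ITGA6 lost its call with quantile normalization (0.19, limma adjusted p = 0.117) and with the methods' t-test.

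VEGFA, the angiogenic factor that thrombospondin 1 can bind, moved opposite to THBS1. It was read at 614, 576 and 666 in the low density libraries, against 1274, 1194 and 1215 in the high density libraries (−0.96 ± 0.06, limma adjusted p = 1.19e-59). SDC4, a membrane proteoglycan, fell by 0.168 on the log2 scale (adjusted p = 1.78e-04), but its value was −0.022 with quantile normalization and −0.026 with positive control scaling, and neither passed. KDR, a VEGF receptor, had an adjusted p of 0.0494 (−0.45), and 9 of its alternatives did not pass. Among these were leaving out low density replicate 2 (−0.30, limma adjusted p = 0.19) or 3 (−0.60, adjusted p = 0.0505) and each of high density replicates 1 (−0.41, adjusted p = 0.142), 2 (−0.48, adjusted p = 0.0526) and 3 (−0.46, adjusted p = 0.054). ITGB1, the common beta subunit, averaged 4190 at low density, against 4220 at high density (−0.010, adjusted p = 0.86), but passed with median-of-ratios scaling (−0.082, adjusted p = 0.0442) and, with the opposite sign, with positive control scaling (0.132, adjusted p = 0.0141). The receptor gene CD36 stayed under the floor, at 12.0 at low density, against 22.9 at high density.

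EDN1 was the only gene of the 9 listed for the endothelin pathway on the panel, so that its converting enzyme and receptors were not read. Endothelial cells are a main source of endothelin-1 in the body. All 5 endothelial markers on the panel were under the floor, with sums from 39.3 to 41.3 at low density, against 46.8 to 64.6 at high density, and PECAM1, a defining marker, averaged 13.3 at low density, against 18.0 at high density. None was at 0, and the negative control probes averaged 7.79 at low density, against 8.95 at high density. The part of these markers in the change of EDN1 was not tested. Fibroblasts and platelets are known sources of thrombospondin 1. Of 9 fibroblast markers 8 were under the floor, and their sums were 98.1 to 118 at low density, against 87.7 to 105 at high density. COL1A1, which averaged 35.9 at low density, against 23.6 at high density, was the only fibroblast marker tested, and it passed (0.60, adjusted p = 0.0141). FAP, under the floor, went the other way without overlap, at 8.74, 8.04 and 9.39 at low density, against 17.9, 22.0 and 19.5 at high density. FAP was not tested. COL1A1 lost its limma call without high density replicate 1 (0.45, adjusted p = 0.11). The same held without low density replicate 2 (0.49, limma adjusted p = 0.0504). Without low density replicate 3, which left 1 low density sample, the value of COL1A1 was 0.57, and no call is given for it there. Its call was also lost with quantile normalization (0.54, limma adjusted p = 0.0801) and with the methods' t-test (adjusted p = 0.0945). For platelets and leukocytes CXCR4 was tested of 3 markers and did not pass (adjusted p = 0.422), with sums of 54.4 to 76.1 at low density, against 64.6 to 84.8 at high density.

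By contrast 6 of the 7 epithelial markers fell, beside 25.2% of all tested genes. With positive control scaling 5 fell, since CDH1 did not pass (−0.104, limma adjusted p = 0.0956), and with median-of-ratios scaling 7 fell. The sums of the 7 markers were 18487 to 19210 at low density, against 25864 to 26522 at high density. KRT19, a keratin, fell by 0.973 on the log2 scale, and ELF3, an epithelial transcription factor, dropped by 0.817. EPCAM did not pass (−0.032, adjusted p = 0.523) but passed as a fall with median-of-ratios scaling (−0.10, adjusted p = 0.0115) and as a rise with quantile normalization (0.106, adjusted p = 0.00252), and had a value of 0.109 with positive control scaling. EDN1 fell with these markers, and AREG and THBS1 rose against them. The part of these and of the fibroblast markers in the changes of the 3 genes was not tested.

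The genes most like each of the 3 were sought by Pearson correlation of log2(normalized count + 1) over the 6 libraries, as a description. Since the libraries fall into 2 densities, a high r mostly says that a gene differed between them in the same direction. For AREG they were MGAT5, an enzyme of N-glycan branching (r = 0.998), the integrin subunit gene ITGA3 (r = 0.997) and HEG1, a membrane protein (r = 0.997), with log2 fold changes of 0.47, 0.74 and 1.47. For THBS1 they were EGFR (r = 0.996), HSD17B12, an enzyme of fatty acid elongation (r = 0.995), and CTNNB1, the gene of beta-catenin (r = 0.995), with log2 fold changes of 0.56, 0.15 and 0.26, of which CTNNB1 did not pass with quantile normalization (0.11, limma adjusted p = 0.0859).

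For EDN1 the likeness was lower. The genes were FBN1, the gene of fibrillin 1 (r = 0.964), NOS3, the endothelial nitric oxide synthase (r = 0.96), and ZFYVE9, an adaptor of TGF-beta signalling (r = 0.944). FBN1 averaged 17.9 ± 0.13 at low density, against 29.9 ± 7.91 at high density (−0.67), and gets no p here because it reached the floor only through its high density values. NOS3 did not pass (−0.26, adjusted p = 0.285), and ZFYVE9 fell by 0.32 on the log2 scale (adjusted p = 1.46e-04) and did not pass with positive control scaling (−0.18, adjusted p = 0.0576).

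**Figure D5:**
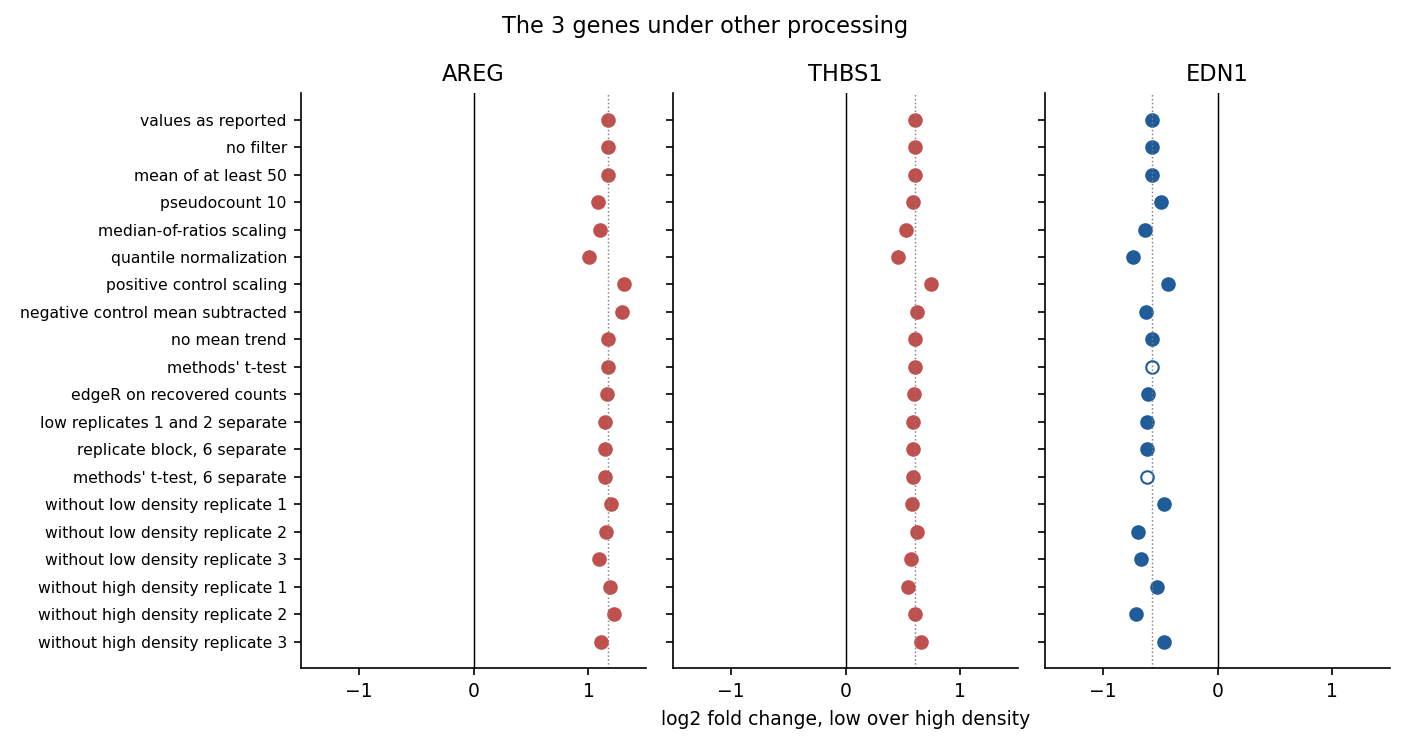
Log2 fold change, low over high density, of AREG, THBS1 and EDN1 as reported (top row, dotted line) and under 19 alternatives, with filled points for an adjusted p under 0.05 and open points for a p that missed it. No value crosses 0, and the 2 open points are EDN1 with the methods' t-test.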

How the data were processed

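The study loaded 100 ng of RNA per sample on the nCounter PanCancer Progression Panel. The authors deposited a normalized signal for 784 probes, of which 770 were genes, 8 negative and 6 positive controls; per the values it was barcode counts times 1 factor per sample, with control probes unscaled and no background subtracted. The methods name Microsoft Excel for Z-scores, and the software that scaled the deposited values to the reference genes is not given in the sources used here. Whole counts were recovered for 98.93% to 100% of values under 100 counts (within 0.1 count), and used for depth, noise between replicates and edgeR 4.0.16.

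The 480 of 740 non-reference genes whose mean reached 20 were fitted on density with limma 3.58.1 in R 4.3.3 on log2(value + 1), with a mean trend, two-sided, at an adjusted p of 0.05. The design had foreseen 6 separate samples; low density replicates 1 and 2 were averaged because of their agreement, and 6 separate samples, for limma and for the methods' t-test, became alternatives chosen after seeing the data. The scripts were tested on simulated data.

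The 3 genes, the gene lists and the tests were chosen with earlier results of these data known. Named were the 3 genes, all panel genes of short lists and the 3 genes most like each by Pearson r. Of 770 symbols 755 were current and 15 older in RefSeq (GRCh38.p14), and all 3 genes matched a RefSeq promoter. Alternatives covered the floor, pseudocount, scaling, background, trend, test, replicate block and each replicate left out.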

Additional observations from a re-analysis of the deposited data

How the results depend on the processing

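AREG lay between 1.00 and 1.31, THBS1 between 0.46 and 0.74 and EDN1 between −0.74 and −0.43 over 19 alternatives, with the lowest AREG and THBS1 values under quantile normalization and the EDN1 value nearest 0 under positive control scaling. The highest adjusted p over the alternatives was 0.00804 for AREG, 0.0197 for THBS1 and 0.115 for EDN1, each with the methods' t-test, where EDN1 kept its value of −0.567, and EDN1 was also lost with that test on 6 separate samples (−0.612, adjusted p = 0.0736), an alternative chosen after seeing the data. Leaving out each replicate gave 1.09 to 1.22 for AREG, 0.54 to 0.65 for THBS1 and −0.71 to −0.46 for EDN1. Without low density replicate 3, the low density sample left was assumed to vary like the high density samples.

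Of the YAP and TAZ targets, 3 rose under quantile normalization, and 1 fell with positive control scaling, 1 without the mean trend and 0 with the methods' t-test (0 also at an unadjusted p under 0.05; edgeR 2). On 6 separate samples that test gave 0 falls after adjustment and 2 before it, EDN1 and TGFB2. Signs turned with positive control scaling for ADAM17 (0.037), ERBB2 (0.094), ITGB1 (0.132) and EPCAM (0.109), for EPCAM also with quantile normalization (0.106), and when replicates were left out for THBS4 (−0.216 to 0.068) and ITGB1 (−0.034 to 0.005); the cause was not tested. Positive control scaling moved the median gene by 0.141 and gave 240 rises and 76 falls (75.9% rises), against 182 and 121 (60.1%) as reported; the split was 50.5% with median-of-ratios scaling and 50.9% with quantile normalization.

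Samples with the same number did not deviate together (r = 0.117, −0.111 and −0.035 over 480 genes). With so few samples this cannot exclude a pairing by number. A replicate block on 6 separate samples gave 320 genes and EDN1 −0.61, against 318 and −0.61 without it, and 303 as reported. EDN1 rests on 36 to 71 counts per library, where counting error is a large part of the spread.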
